A study of Mus musculus with 6 samples.

Results

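This section describes 43 genes of the JAK-STAT pathway in differentiating mouse myoblasts, chosen by name from the 55421 genes of the count table. They were 4 Janus kinases, 6 STAT transcription factors, 8 genes of the SOCS family, 4 PIAS genes together with 2 phosphatases, 13 cytokine or hormone receptor chains, 3 cytokine ligands, and 3 genes known as STAT targets. Total RNA had been sequenced from C2C12 cells, an established mouse myoblast line, at differentiation day 4. The DM1 group carried a stably transfected GFP plasmid whose transcript holds 200 CUG repeats (CUG200), as a model of myotonic dystrophy type 1, and the normal group carried the same kind of plasmid with 5 repeats (CUG5). Both groups therefore carried a GFP plasmid and had been moved to differentiation medium, and each had 3 libraries. The model places the repeat in a plasmid transcript and not in the *Dmpk* gene of the cells, and the cells of each group had been selected for the plasmid with G418. The study calls the 3 libraries of a group biological replicates, without saying whether they came from separate transfections or cultures, so the p-values measure the spread between these libraries.

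In this pathway a cytokine joins receptor chains at the cell surface, and the JAK kinases bound to those chains phosphorylate the receptor and then a STAT protein. Phosphorylated STAT proteins pair, enter the nucleus, and bind DNA, where they switch on target genes that include their own inhibitors of the SOCS family. In muscle, LIF and IL-6 are known as signals that act on myoblasts through the shared receptor chain gp130, the product of *Il6st*, and on to STAT3. Most of the regulation is by phosphorylation, which transcript levels do not show.

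The library totals ran from 61707889 to 80957325 counts in the normal group and from 63529148 to 79094991 counts in the DM1 group, where 1 count stands for 75 aligned bases and 4 counts for 1 sequenced fragment. The groups overlapped in their share of mitochondrial counts, at 9.04% to 12.6% and 8.90% to 13.5%. Of 15 myotube marker genes, 12 passed an adjusted p of 0.05 as lower in the DM1 group and none as higher (edgeR). Over all 19005 genes tested, 8.73% were lower and 7.13% higher. The fusion gene *Mymx* was above the normal libraries in all DM1 libraries without passing (log2 fold change 0.23, edgeR adjusted p = 0.0732). The summed TPM of the 15 genes was 13288 to 15904 in the normal group but 8541.9 to 10332 in the DM1 group. Of 10 genes of undifferentiated myoblasts 2 were higher (*Cd34* and *Id2*) and 3 lower (*Myod1*, *Hes1*, and *Sdc4*). The summed TPM of the 10 genes was 351.39 to 400.5 in the normal group and 332.84 to 384.1 in the DM1 group. Of 7 proliferation genes 1 was higher (*Pcna*) and 2 lower (*Mcm2* and *Mcm5*). The share called was 50% in the former list and 42.86% in the latter, against 15.9% of all tested genes. The endothelial marker *Tek* was lower (log2 fold change -0.95), in a list that summed to at most 4.23 TPM, and the adipocyte list summed to at most 0.063 TPM. The part of these differences, of which the myotube list was the largest in TPM, in the results below was not tested. Fewer cells of one type and less RNA per cell cannot be told apart in bulk RNA. Of 10 haematopoietic markers, 4 (*Ptprc*, *Adgre1*, *Cd3e*, and *Tyrobp*) had 0 counts in all 6 libraries, and the list summed to 4.15 to 6.25 TPM in the normal group and 4.41 to 7.11 TPM in the DM1 group.

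The members moved in both directions. Of the 43 genes, 42 had enough counts to be tested, and 13 of them passed an adjusted p of 0.05 in edgeR's quasi-likelihood test, against 15.9% of the 19005 genes tested. The 7 genes that were higher in the DM1 group (background 7.13%) were *Il12a*, *Lif*, *Osmr*, *Tyk2*, *Socs3*, *Bcl2l1*, and *Pim1*. The 6 genes that were lower (background 8.73%) were *Jak1*, *Stat3*, *Socs7*, *Ptpn11*, *Lepr*, and *Mcl1*. Only *Il12a*, *Bcl2l1*, and *Lepr* also had an absolute log2 fold change over 1 (background 2.18%), and the median log2 fold change was 0.08 over the 42 tested members and 0.02 over all tested genes. In CPM (counts scaled to a common library size by TMM), 25 members had groups that did not overlap, 15 with all DM1 libraries above and 10 with all DM1 libraries below, where 37.2% of all tested genes did not overlap. The remaining member, *Stat4*, which is known for IL-12 signaling in lymphocytes, had 0 counts in every library, which allows up to 0.148 to 0.194 CPM (3 fragments or 12 counts, counting error only). *Stat4* shares 1033 of its 3872 exonic bases with *Gm28177* on the same strand, to which its reads could have been assigned, and *Gm28177* had 0 to 24 counts in a library.

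**Figure D1:**
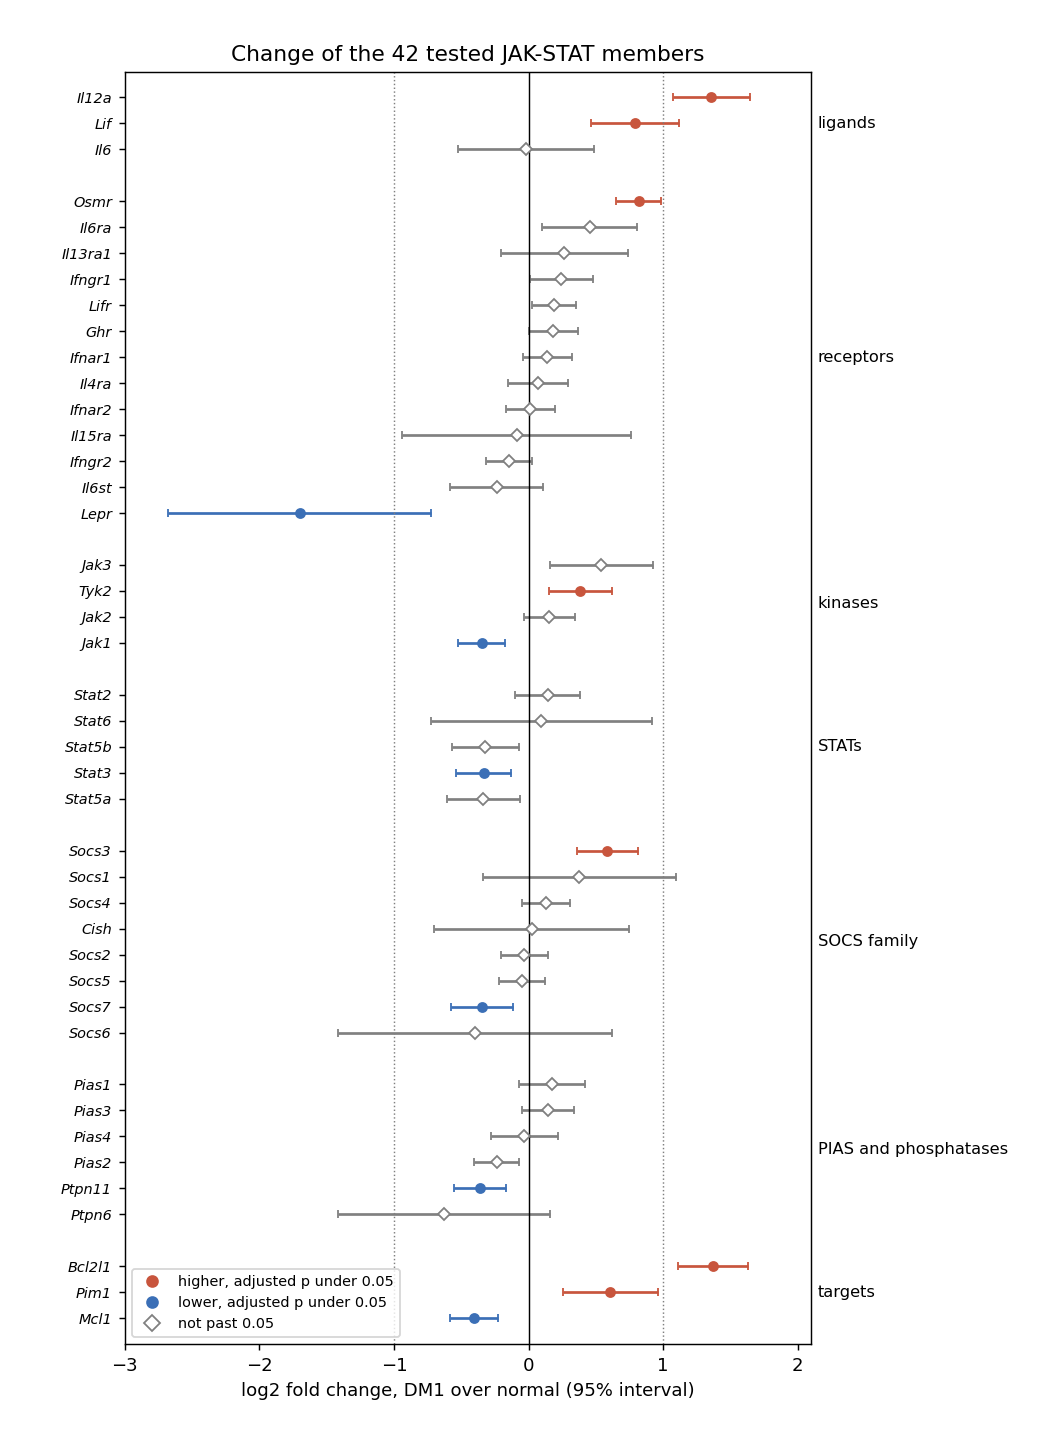
Log2 fold change of the DM1 group over the normal group (horizontal axis) for the 42 tested members, grouped by role, with 95% intervals from edgeR. Filled points are the 7 higher and 6 lower members past an adjusted p of 0.05, and dotted lines mark a log2 fold change of -1 and 1.

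Of the 3 ligand genes, 2 were upregulated in the DM1 group (66.67%, where 7.13% of all tested genes were higher). *Il12a* (chr3:68690644-68698547, GRCm38, plus strand) encodes the alpha subunit of interleukin 12. Its level was 14.4, 14.5, and 12.8 CPM in normal libraries 1, 2, and 3 and 33.8, 41.4, and 31.6 CPM in DM1 libraries 1, 2, and 3. Every DM1 library was above every normal library, with group means of 13.9 ± 0.97 and 35.6 ± 5.18 CPM (SD, n = 3 each) and a 2.56-fold increase (log2 fold change 1.36, SE 0.13, edgeR adjusted p = 0.00114). *Lif* (chr11:4257557-4272514, plus strand) encodes leukemia inhibitory factor, which signals through LIFR and gp130. It stood at 16.1, 13.5, and 13.6 CPM in the normal libraries and at 20.2, 26.6, and 27.7 CPM in the DM1 libraries. The groups did not overlap, with DM1 library 1 nearest to the normal libraries, and the difference was 1.73-fold (log2 fold change 0.79, SE 0.14, edgeR adjusted p = 0.00972). The transcript of *Il6*, which encodes the founding cytokine of the gp130 family, was scarce, with 167, 153, and 136 counts for the normal group against 194, 138, and 119 for the DM1 group. These counts overlapped, and the log2 fold change of *Il6* was -0.02 with a 95% interval from -0.52 to 0.49 (edgeR adjusted p = 0.971), so a change of up to about this size in either direction was not detectable here.

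Among the 13 receptor chains, *Osmr* was higher and *Lepr* lower, and the other 11 did not pass the test, a share called of 15.38% that is close to the 15.9% of all tested genes. *Osmr* (chr15:6813577-6874969, minus strand) encodes the oncostatin M receptor chain, which works as a pair with gp130. Its level was 50.7, 52.7, and 51.7 CPM in the normal libraries and 86.9, 92.3, and 94.1 CPM in the DM1 libraries. Within each group the libraries lay close together, and the groups were far apart, with a 1.76-fold higher mean in the DM1 group (log2 fold change 0.82, SE 0.07, edgeR adjusted p = 0.00114). *Lepr* (chr4:101717404-101815352, plus strand), the leptin receptor gene, was near the lower end of what was measured, with 54, 67, and 104 counts for the normal group against 18, 20, and 31 for the DM1 group. At 4 counts a fragment these are few fragments, and although the groups did not overlap, the estimate was wide (3.25-fold lower, log2 fold change -1.70, SE 0.43, edgeR adjusted p = 0.0304). Without normal library 2 or 3 or DM1 library 1 or 2, the adjusted p of *Lepr* was 0.0756 to 0.131 and its log2 fold change -1.69 to -1.38.

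*Il6st* and *Lifr*, the chains that pair in the LIF receptor, did not pass the test. *Il6st*, the gene of gp130, stood at 123, 177, and 126 CPM in the normal libraries and at 109, 119, and 135 CPM in the DM1 libraries. Normal library 2 was above the others and the groups overlapped, with a log2 fold change of -0.24 and a 95% interval from -0.58 to 0.11 (edgeR adjusted p = 0.338). *Lifr*, the gene of the LIF receptor chain and a neighbor of *Osmr* on chromosome 15 (chr15:7090614-7197489), had 101, 101, and 105 CPM in the normal libraries and 115, 118, and 117 CPM in the DM1 libraries. The DM1 libraries were all above the normal libraries, but by a small amount, and the gene did not pass the test (log2 fold change 0.19, SE 0.07, edgeR adjusted p = 0.118). The intervals of *Il6st* and *Lifr* (0.02 to 0.35) lay below that of *Osmr* (0.65 to 0.99), although the difference between genes was not tested. The remaining receptors, *Il6ra*, *Ghr*, *Ifnar1*, *Ifnar2*, *Ifngr1*, *Ifngr2*, *Il4ra*, *Il13ra1*, and *Il15ra*, had log2 fold changes from -0.14 (*Ifngr2*) to 0.45 (*Il6ra*), and the smallest of their adjusted p-values was 0.0842 (edgeR, *Il6ra*, which rose to 12.3 CPM in DM1 library 3 but stood at 8.55 CPM in DM1 library 2). *Ghr*, the growth hormone receptor gene, had 132, 133, and 130 CPM in the normal libraries and 151, 158, and 139 CPM in the DM1 libraries, which did not overlap, but it did not pass the test (log2 fold change 0.19, edgeR adjusted p = 0.160). The receptor chain of interferon gamma *Ifngr1* (log2 fold change 0.24) and its partner *Ifngr2* had opposite signs and did not pass the test (edgeR adjusted p = 0.144 and 0.229), and the chains of the type I interferon receptor had log2 fold changes of 0.14 (*Ifnar1*) and 0.01 (*Ifnar2*).

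Of the 4 kinase genes, the most abundant was lower and another was higher (50% called, against 15.9% of all tested genes). *Jak1* (chr4:101152367-101265282, minus strand), the kinase used by gp130 and by interferon receptors, fell from 227, 214, and 216 CPM in the normal libraries to 172, 167, and 177 CPM in the DM1 libraries. The groups were well separated, and the level was 1.27-fold lower (log2 fold change -0.35, SE 0.08, edgeR adjusted p = 0.0186). *Tyk2* (chr9:21104068-21131243, minus strand), which serves the type I interferon and IL-12 receptors, had 34.0, 30.2, and 29.9 CPM in the normal libraries and 37.5, 39.9, and 45.4 CPM in the DM1 libraries. It was 1.31-fold higher (log2 fold change 0.39, SE 0.10, edgeR adjusted p = 0.0372), and 554 of its exonic bases overlap the gene *1700084C06Rik* on the opposite strand, whose reads cannot be told apart if the counting ignored strand. *Jak2*, the kinase of the growth hormone receptor, stood at 32.5, 29.3, and 30.7 CPM in the normal libraries and at 35.2, 34.4, and 33.5 CPM in the DM1 libraries. Its DM1 libraries were above the normal libraries by little, and it did not pass the test (log2 fold change 0.15, edgeR adjusted p = 0.259). *Jak3*, known mostly from lymphocytes, had a mean of 7.92 ± 1.59 CPM in the normal group and 11.5 ± 1.08 CPM in the DM1 group (SD, n = 3 each) and narrowly missed the threshold (log2 fold change 0.54, edgeR adjusted p = 0.0605). *Jak3* passed the threshold with DESeq2 (adjusted p = 0.0237). In edgeR it passed with a block for the replicate number, at least 10 counts in every library, or counts divided by 4 (adjusted p 0.0377 to 0.0485). It did not pass on library totals (edgeR adjusted p = 0.0895) or with limma on log2(TPM + 1) (adjusted p = 0.354). Nor did it pass with any library left out (edgeR adjusted p 0.0870 to 0.149). *Jak3* shares 404 exonic bases with *Insl3* on its own strand. With 1 library left out, *Jak1* had an adjusted p of 0.0641 to 0.0863 without normal library 1, 2, or 3 or DM1 library 2, and *Tyk2* one of 0.0581 to 0.136 without any library other than DM1 library 1.

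*Stat3* was the only STAT gene past the threshold (20% of those tested, against 15.9% of all tested genes), and it was lower. The gene (chr11:100885098-100939540, minus strand) encodes the carrier of the gp130 signal. It had 104, 90.4, and 99.0 CPM in the normal libraries and 74.5, 74.4, and 84.3 CPM in the DM1 libraries. The groups did not overlap, and the level was 1.26-fold lower (log2 fold change -0.33, SE 0.09, edgeR adjusted p = 0.0393). Next to it on chromosome 11 lie *Stat5a* and *Stat5b*, the STAT genes of growth hormone signaling, which had similar negative fold changes. *Stat5a* had 18.6, 18.6, and 19.7 CPM in the normal libraries and 15.4, 13.1, and 16.7 CPM in the DM1 libraries. *Stat5b* had 23.6, 21.8, and 23.3 CPM in the normal libraries and 17.0, 17.3, and 20.6 CPM in the DM1 libraries. For both genes every DM1 library was below every normal library, but neither passed the test (log2 fold change -0.34 and -0.32, edgeR adjusted p = 0.0902 and 0.0837). Without DM1 library 3 both passed it (edgeR adjusted p = 0.0406 and 0.0232), and *Stat3* had an adjusted p of 0.0614 to 0.154 without any library other than that one. *Stat5a* and *Stat5b* are near-identical copies, so reads they share may be split between them, and *Stat5a* overlaps *Stat3* by 72 exonic bases on the opposite strand. *Stat2*, the STAT of type I interferon signaling, stood at 0.14 on the log2 scale (edgeR adjusted p = 0.416), and *Stat6*, the STAT of IL-4 signaling, had 36 to 69 counts in a library and a log2 fold change of 0.10 with an interval from -0.72 to 0.91.

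Of the 8 SOCS family genes, *Socs3* was higher, *Socs7* was lower, and the others did not pass the test (25% called, against 15.9% of all tested genes). *Socs3* (chr11:117966079-117970047, minus strand) encodes the inhibitor that binds gp130 and its JAK kinases and is itself induced by STAT3. Its level was 18.1, 16.0, and 16.1 CPM in the normal libraries and 25.4, 23.7, and 26.2 CPM in the DM1 libraries. The groups did not overlap, and the mean was 1.5-fold higher in the DM1 group (log2 fold change 0.59, SE 0.10, edgeR adjusted p = 0.00803). *Socs3* and *Stat3* thus changed in opposite directions in the same libraries. *Cish*, the usual target of STAT5, was scarce at 82, 71, and 70 counts for the normal group against 51, 74, and 97 for the DM1 group. The DM1 libraries spanned the normal ones, and the estimate of 0.02 had an interval from -0.70 to 0.74 on the log2 scale, so no direction can be given for *Cish*. *Socs2*, another inhibitor of growth hormone signaling, was abundant and near level, with 62.6, 60.3, and 57.7 CPM in the normal libraries and 61.1, 59.2, and 56.3 CPM in the DM1 libraries. Its log2 fold change of -0.03 had a 95% interval from -0.21 to 0.14, which bounds any change more closely than for *Cish* or for *Socs1* (-0.34 to 1.09). *Socs7* (chr11:97362435-97398542, plus strand) fell from 47.8, 44.1, and 45.5 CPM to 31.6, 37.1, and 39.4 CPM and barely passed the test (log2 fold change -0.35, SE 0.10, edgeR adjusted p = 0.0497). Its adjusted p was 0.0971 to 0.158 without any library other than DM1 library 3. *Socs6* varied most within groups, with 20.9 CPM in normal library 2 and 17.7 CPM in DM1 library 2 where the other libraries had 32.2 to 47.3 CPM, and its log2 fold change of -0.40 did not pass the test (edgeR adjusted p = 0.584). *Socs4* and *Socs5* had log2 fold changes of 0.13 and -0.05.

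The motif bound by most STAT dimers, TTCNNNGAA, which reads the same on both strands, was searched for in RefSeq promoters (GRCm38.p6, 250 bases before to 50 bases after each start). It occurred in 2726 of 32851 promoters (8.30%) and in 4 of the 49 promoters that matched 37 members (8.16%). The 4 genes with a match were *Cish*, *Socs3*, *Ifnar1*, and *Ifnar2*, of which only *Socs3* was among the 7 higher members, and none of the 5 lower members with a promoter in the table had one. A match of these letters is a description and not a binding site, and other letters or places were not searched. The matches are shown, with capitals marking the motif, because *Socs3* and *Cish* are both known as STAT targets and only the former passed the test, although the difference between them was not tested. In *Cish* (chr9:107296654-107296683, plus strand, wholly in an annotated exon) a pair of matches begins at bases 1 and 12 from the start.
*Cish*: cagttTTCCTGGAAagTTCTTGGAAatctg
In *Socs3* (chr11:117969492-117969540, minus strand, in an intron of an annotated transcript) the match begins 154 bases before the RefSeq start.
*Socs3*: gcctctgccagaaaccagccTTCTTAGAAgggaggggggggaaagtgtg
In *Ifnar1* (chr16:91485190-91485238, plus strand) it begins 5 bases before the start.
*Ifnar1*: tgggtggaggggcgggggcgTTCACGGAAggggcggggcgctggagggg
In *Ifnar2* (chr16:91372549-91372597, plus strand) it begins 214 bases before the start.
*Ifnar2*: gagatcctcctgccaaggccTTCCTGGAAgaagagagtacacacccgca

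Among the other inhibitors, 1 of the 6 PIAS and phosphatase genes passed the test (16.67%, against 15.9% of all tested genes). *Ptpn11* (chr5:121130533-121191397, minus strand) encodes the phosphatase SHP2, which acts downstream of gp130 and other receptors. It fell from 139, 121, and 132 CPM in the normal libraries to 103, 98.1, and 105 CPM in the DM1 libraries. All DM1 libraries were below all normal libraries (1.28-fold lower, log2 fold change -0.36, SE 0.08, edgeR adjusted p = 0.0226). Without normal library 1 or 3 or DM1 library 2 its adjusted p was 0.0879 to 0.106. The related phosphatase gene *Ptpn6*, which is typical of blood cells, had only 42 to 162 counts in a library and did not pass the test (log2 fold change -0.63, 95% interval -1.41 to 0.16). Of the PIAS genes, whose products are SUMO ligases that restrain STAT proteins in the nucleus, *Pias2* had groups that did not overlap (84.8 ± 2.77 CPM in the normal group and 71.9 ± 2.09 CPM in the DM1 group, SD, n = 3 each) and an edgeR adjusted p of 0.0605. *Pias1*, *Pias3*, and *Pias4* had log2 fold changes of 0.18, 0.15, and -0.03.

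All 3 target genes passed the test (15.9% of all tested genes did), with *Bcl2l1* and *Pim1* higher and *Mcl1* lower. *Bcl2l1* (chr2:152780668-152831728, minus strand) encodes the survival protein BCL-XL. It had 11.3, 10.7, and 10.8 CPM in the normal libraries and 24.6, 30.5, and 29.8 CPM in the DM1 libraries. The normal libraries were nearly equal and all DM1 libraries were above them, a 2.58-fold difference (log2 fold change 1.37, SE 0.11, edgeR adjusted p = 9.16e-04). *Mcl1* (chr3:95658788-95663176, plus strand), a survival gene of the same family, was more abundant and moved the other way, from 124, 116, and 124 CPM to 96.1, 90.9, and 88.4 CPM. Its groups did not overlap either, and it was 1.32-fold lower (log2 fold change -0.40, SE 0.08, edgeR adjusted p = 0.0119). *Pim1* (chr17:29490753-29496112, plus strand), a kinase gene that STAT proteins induce, had 3.32, 4.10, and 3.76 CPM in the normal libraries and 5.23, 5.49, and 6.30 CPM in the DM1 libraries. It was 1.52-fold higher (log2 fold change 0.61, SE 0.16, edgeR adjusted p = 0.0319), with 488 exonic bases that overlap *Gm26885* on the opposite strand. With a library left out, *Mcl1* had an adjusted p of 0.0528 to 0.0727 without normal library 1 or 3 or DM1 library 2, and *Pim1* one of 0.0642 to 0.111 without any library other than DM1 library 1.

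**Figure D2:**
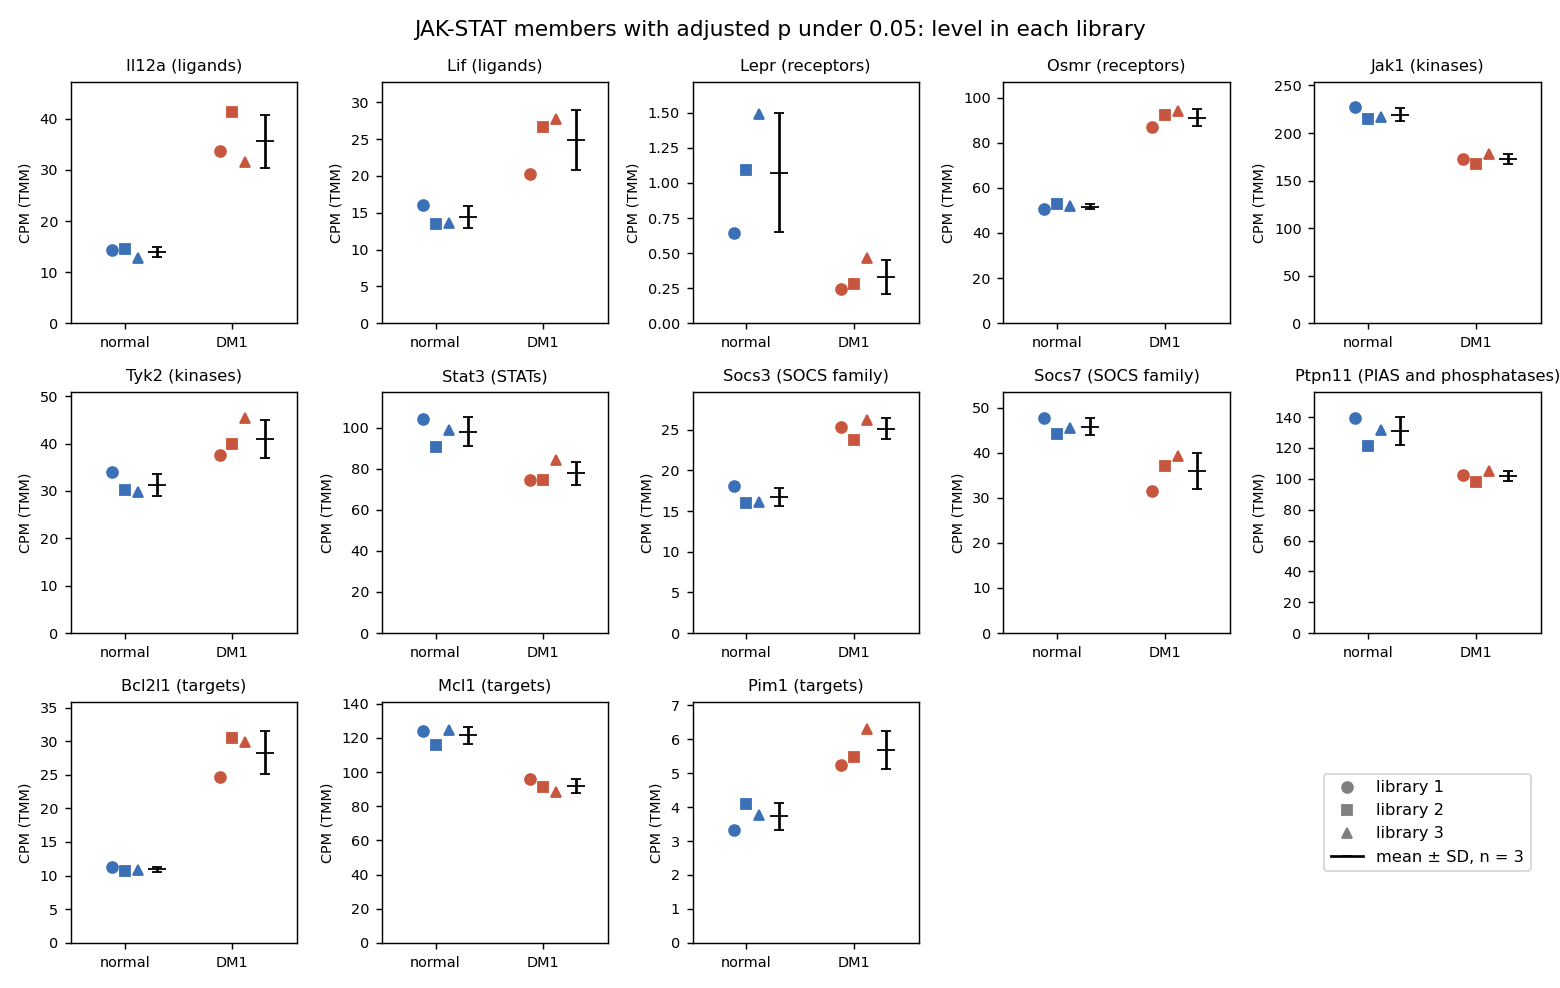
CPM (TMM-scaled, linear axis from 0) of the 13 members past an adjusted p of 0.05 in each of the 3 normal and 3 DM1 libraries, with the mean and SD beside the points. In every panel the groups do not overlap. *Bcl2l1* rises from between 10.7 and 11.3 CPM to between 24.6 and 30.5 CPM, and *Jak1* falls from between 214 and 227 CPM to between 167 and 177 CPM.

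The 5 higher genes *Il12a*, *Bcl2l1*, *Osmr*, *Lif*, and *Socs3* passed the test in all 6 fits that left out a library. None of the 6 lower genes did so, and their number past the threshold ran from 0 (without normal library 3 or DM1 library 2) to 8 (without DM1 library 3, with *Stat5a* and *Stat5b* added). Calls over all genes moved the same way. Of all tested genes, 485 of 19835 were lower without normal library 3 and 568 of 19584 without DM1 library 2. Without DM1 library 3 it was 2111 of 19694, against 1660 of 19005 with all 6 libraries. The number of higher members ranged from 5 to 7 in the same fits, with *Il6ra* added without DM1 library 2 (edgeR adjusted p = 0.0493) and *Il13ra1* added without DM1 library 3 (edgeR adjusted p = 0.0378). Higher genes over the whole table numbered 543 to 1678 in these fits, against 1356 with all 6 libraries. *Il13ra1* had 120 and 134 CPM in DM1 libraries 1 and 2 but 78.6 CPM in DM1 library 3. In all of these fits the 13 genes had the sign they had with 6 libraries. When limma was run on log2(TPM + 1) in place of edgeR on counts, 5 of the 13 passed, *Il12a*, *Bcl2l1*, and *Osmr* as higher and *Ptpn11* and *Mcl1* as lower. Calls over all 19005 genes also fell with limma, to 427 higher and 816 lower from 1356 and 1660.

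**Figure D3:**
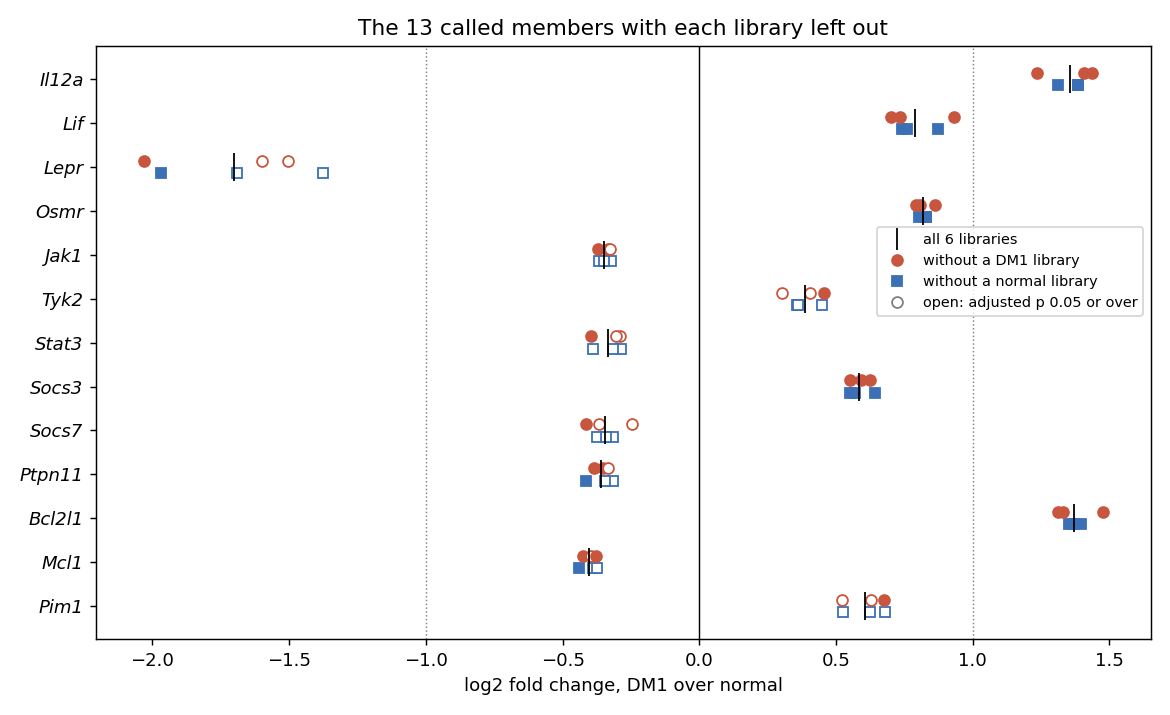
Log2 fold change (DM1 over normal) of the 13 called members with all 6 libraries (black ticks) and with 1 library left out (circles, a DM1 library; squares, a normal library). Open symbols did not pass an adjusted p of 0.05, and *Lepr* moves most, from -2.03 to -1.38.

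Levels can be compared between genes only per length, for which the deposited TPM values were used. *Ghr* was the most abundant member at 88.2 TPM over the 6 libraries, followed by *Jak1* (66.4 TPM), *Mcl1* (50.6 TPM), and *Pias2* (49.6 TPM). The order differed between the groups, since *Il12a* was second in the DM1 group (62.8 TPM, above *Jak1* at 56.1 TPM) but had 31.2 TPM in the normal group. Neighbors in this order overlapped between libraries in most cases, and *Ghr* itself ranged from 66.9 to 102 TPM. At the other end, *Lepr*, *Cish*, *Stat6*, *Socs1*, and *Il15ra* averaged between 0.21 and 0.86 TPM. Of the kinases *Jak1* was above *Tyk2* (13.8 TPM), *Jak2* (12.9 TPM), and *Jak3* (4.06 TPM), and of the STAT genes *Stat3* (44.5 TPM) was above *Stat2* (27.5 TPM), *Stat5a* (8.29 TPM), and *Stat5b* (7.34 TPM). Among the chains of the gp130 family, *Osmr* had 26.0 ± 0.22 TPM in the normal group and 37.5 ± 4.51 TPM in the DM1 group, against 30.5 ± 6.30 and 23.3 ± 4.87 TPM for *Il6st* (SD, n = 3 each). *Il6st* and *Osmr* were thus at overlapping levels in the normal libraries, and in each DM1 library *Osmr* was above *Il6st*.

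**Figure D4:**
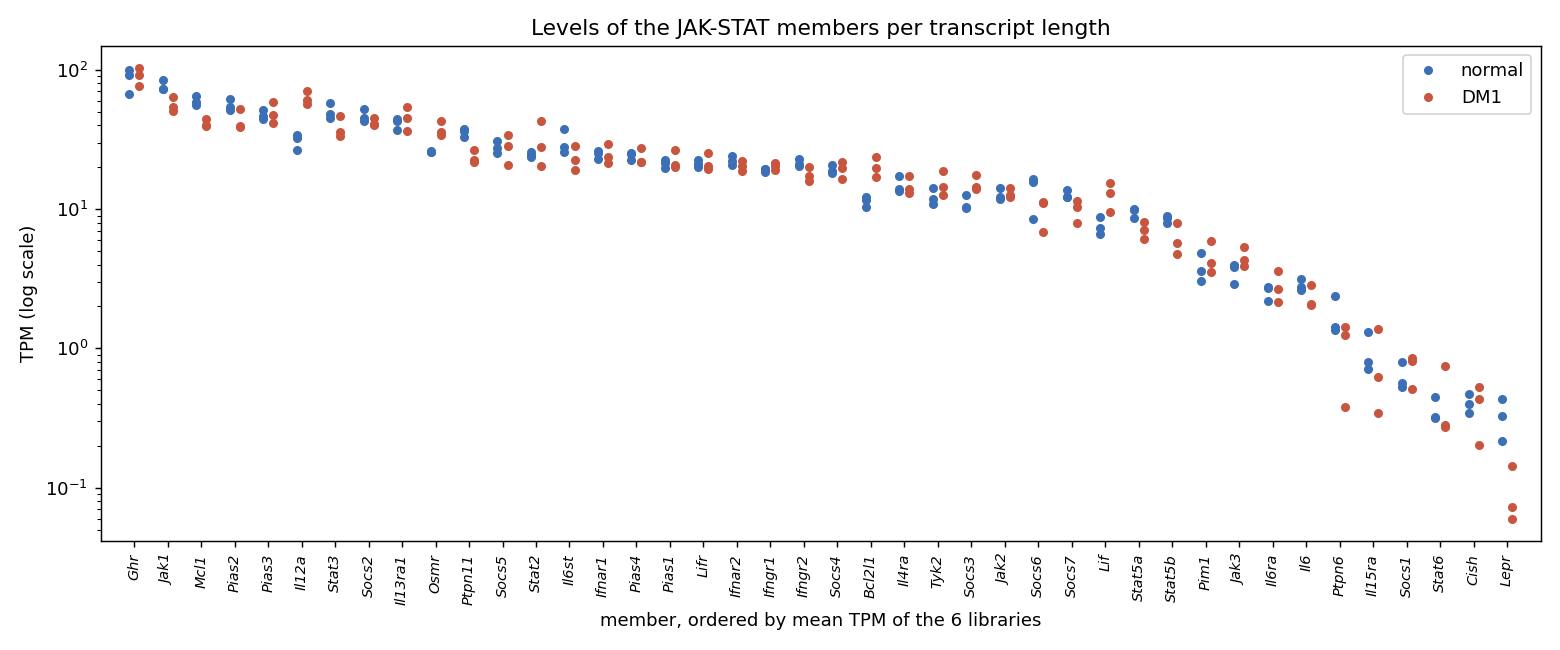
TPM (log axis) of the members in each normal (blue) and DM1 (red) library, ordered by their mean over the 6 libraries, without *Stat4*, which is listed at 0. The levels run from 88.2 TPM (*Ghr*) to 0.21 TPM (*Lepr*), and most neighbors overlap.

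TPM gave smaller differences than counts for all 7 higher members. Of the 2 with the largest fold changes, *Bcl2l1* went from 11.4 to 20.1 TPM and *Il12a* from 31.2 to 62.8 TPM. Their CPM had gone from 10.9 to 28.3 and from 13.9 to 35.6. Likewise, *Osmr* went from 26.0 to 37.5 TPM (51.7 to 91.1 CPM) and *Pim1* from 3.83 to 4.53 TPM (3.73 to 5.67 CPM). The median log2 fold change over all tested genes was also lower with TPM, at -0.06 in limma on log2(TPM + 1) against 0.02 in edgeR. How much of these differences came from transcript length was not tested. Because counts here are proportional to aligned bases, the ratio of counts to TPM gives the mean length of the transcripts that StringTie assigned to a gene. For *Bcl2l1* it was 1743, 1707, and 1426 bases in the normal libraries and 2052, 2312, and 2170 bases in the DM1 libraries. Its DM1 libraries were all above the normal ones (difference 0.43 on the log2 scale, limma unadjusted p = 0.00785), but the adjusted p was 0.498. In the same test 0 of 10689 genes passed (0%), and 796 had an unadjusted p under 0.05. *Bcl2l1* has 9 annotated transcripts of 472 to 2568 bases. For *Osmr* the mean length was 3442, 3342, and 3216 bases in the normal libraries and 3590, 3889, and 3791 bases in the DM1 libraries (difference 0.17, limma adjusted p = 0.511). The member with the smallest p was *Stat3*, whose transcripts were shorter by a small amount, at 3235, 3281, and 3289 bases in the normal libraries and 3126, 3131, and 3113 bases in the DM1 libraries (difference -0.07, limma unadjusted p = 0.00101, adjusted p = 0.307).

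The transcripts assigned to *Il12a* were short. Their mean length was 749, 729, and 777 bases in the normal libraries and 781, 1092, and 770 bases in the DM1 libraries, with DM1 library 2 apart from the others. The shortest protein-coding transcript of the gene has 1268 bases, and the shortest transcript of all, annotated as a retained intron, has 639 bases. By these lengths at most 17.5%, 14.4%, and 21.9% of the *Il12a* molecules in the normal libraries and 22.5%, 72.0%, and 20.9% in the DM1 libraries were protein-coding. The rise of *Il12a* in counts is therefore a rise of transcripts that, in 5 of the 6 libraries, StringTie assigned mostly to retained-intron models. *Stat2* was short as well, with at most 29.2% to 50.4% of its molecules protein-coding, whereas *Socs3* had the length of its coding transcript. The assignment of reads to transcripts is StringTie's estimate and was not checked against reads.

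**Figure D5:**
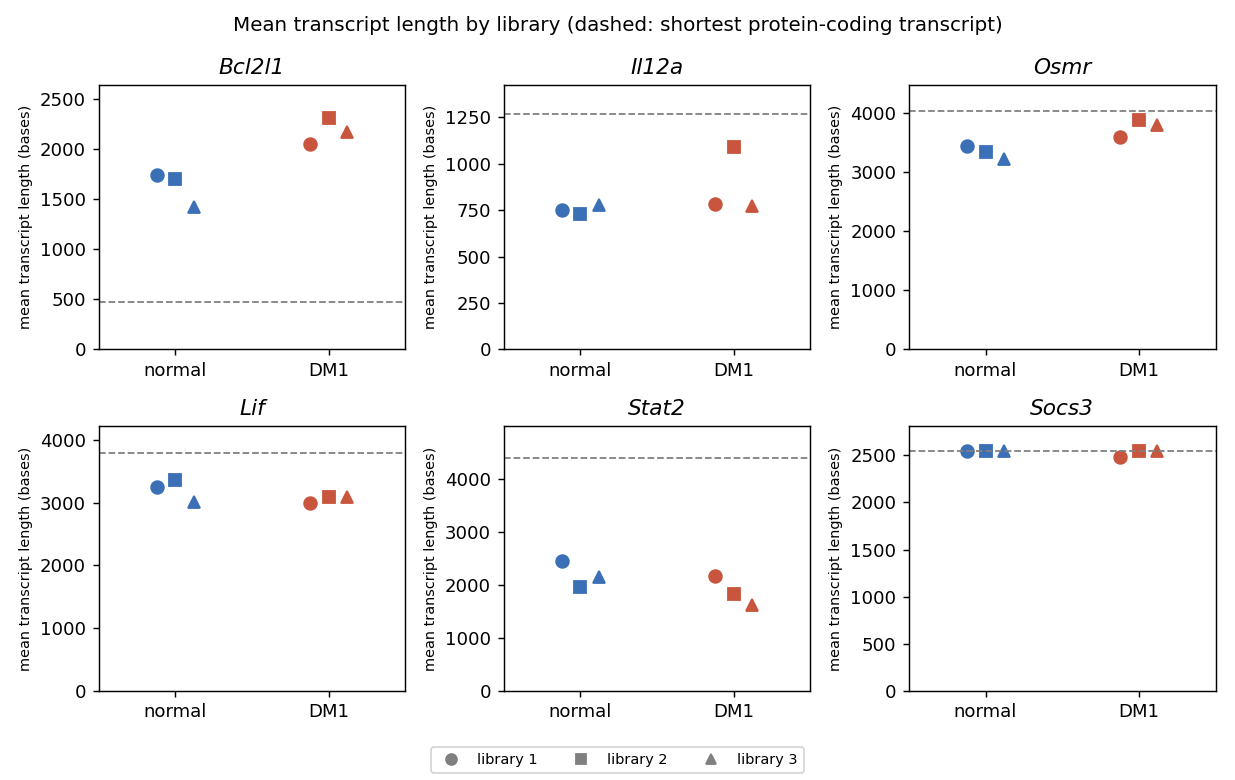
Mean length in bases of the transcripts assigned to 6 members in each library, from deposited counts and TPM, with the shortest protein-coding transcript as a dashed line. *Bcl2l1* lies higher in the 3 DM1 libraries (2052 to 2312 bases) than in the normal ones (1426 to 1743 bases), and *Il12a* lies below its dashed line in all 6 libraries.

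Outside the 43 members, 115 further genes of the pathway in 4 lists were examined, of which 78 could be tested and 23 passed an adjusted p of 0.05 (29.49%, where 15.9% of all tested genes did), 12 as higher (background 7.13%) and 11 as lower (background 8.73%). The share was 16.67% in the list of other receptors, 11.11% in other ligands, and 24.14% in adaptors and other regulators. It was 54.55% in the known STAT targets described below. No test of a list against other genes was made. Of 30 other cytokine receptor genes 18 were tested, among them *Il3ra*, a receptor chain of IL-3, as higher (log2 fold change 0.60, edgeR adjusted p = 0.0160) and *Il21r*, the receptor gene of a lymphocyte cytokine, as lower. *Il21r* counts were 59, 53, and 35 for the normal group against 8, 11, and 8 for the DM1 group, few fragments that nevertheless did not overlap (log2 fold change -2.42, SE 0.45, edgeR adjusted p = 0.0103). Of 30 other ligand genes only 9 could be tested and 1, *Tslp*, was higher (log2 fold change 0.46, edgeR adjusted p = 0.0496). Of 30 adaptors and other regulators 29 were tested, 2 were higher and 5 lower. The lower ones were *Stam2*, *Grb2*, *Akt1*, *Akt2*, and *Pik3r3*, a regulatory subunit of PI3-kinase, which fell from 103, 110, and 108 CPM to 60.5, 52.1, and 46.3 CPM (log2 fold change -1.01, edgeR adjusted p = 0.00172).

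Genes known as STAT targets were found in both directions. Of 25 listed, 22 were tested, 12 passed an adjusted p of 0.05 (15.9% of all tested genes did), 7 as higher (*Bcl3*, *Junb*, *Cebpd*, *Vegfa*, *Igf1*, *Ier3*, and *Timp1*) and 5 as lower (*Bcl2*, *Bcl6*, *Ccnd2*, *Ccnd3*, and *Cdkn1a*), and the median log2 fold change was 0.05. *Ier3*, an immediate early gene, had 23.8, 17.8, and 18.0 CPM in the normal libraries and 52.7, 48.3, and 47.0 CPM in the DM1 libraries. Its groups were far apart (log2 fold change 1.31, SE 0.13, edgeR adjusted p = 0.00145). Of the 3 D-type cyclin genes, *Ccnd2* and *Ccnd3* were lower and *Ccnd1* did not pass the test (log2 fold change -0.05, 95% interval -0.22 to 0.12, edgeR adjusted p = 0.703). *Ccnd3* had 213, 195, and 200 CPM in the normal libraries and 99.0, 66.8, and 83.2 CPM in the DM1 libraries (log2 fold change -1.29, edgeR adjusted p = 0.00181), and *Ccnd2* had a log2 fold change of -1.14 (edgeR adjusted p = 0.00198). Many of these genes answer to other pathways as well, so the list does not measure STAT activity.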

How the data were processed

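Total RNA of 3 normal (CUG5) and 3 DM1 (CUG200) libraries at differentiation day 4 was analyzed. The authors processed the reads with Trim Galore, HISAT2 (GRCm38), and StringTie, whose versions and strand setting are not given in the sources used here. They deposited counts per gene without normalization. For each library the authors also deposited coverage (signal), FPKM, and TPM values per gene, which StringTie scales for length and depth, and FPKM was not tested. The 43 members, the gene lists, and the settings were chosen with earlier results of these data known. Values in every library are given for members past the threshold and for *Jak1*, *Jak2*, *Stat3*, *Stat5a*, *Stat5b*, *Socs2*, *Socs3*, *Cish*, *Il6st*, *Lifr*, *Lif*, and *Il6* whatever their p (*Ghr* was added after its values were seen), and other pathway genes in full only past a log2 fold change of 1. One result of the pathway lists is not reported here.

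Counts were filtered with filterByExpr (minimum count 10), which left 19005 genes, scaled by TMM (factors 0.940 to 1.05), and tested by edgeR's robust quasi-likelihood F test without covariates and Benjamini-Hochberg adjustment over all tested genes. Pairs of replicates differed by 39.5 to 147 in chi-square per degree of freedom, so each library was 1 replicate. A count matched 75 bases of deposited coverage for 99.8% of single-transcript genes within 1 count. Mean transcript length, a measure added after the data were seen, was counts over TPM scaled on single-transcript genes (98.4% to 98.7% within 2%), for genes with at least 100 counts in every library, and compared with limma. Coordinates are those of GENCODE M21, which held 55240 of the 55421 genes. Promoters were RefSeq's, with none for 6 members (*Pias2*, *Pias4*, *Socs2*, *Socs5*, *Socs6*, and *Socs7*). On simulated counts the edgeR test found all 200 genes that had been shifted by 2 on the log2 scale, with 7 false calls among 18935 genes. The length test found 174 of 200 genes shifted by 0.6 in length, with 7 false calls. Both shifts were larger than any change of a member (at most -1.70 for *Lepr* in counts and 0.43 for *Bcl2l1* in length). These simulations therefore do not show how often changes of the members' size are found. Alternatives were DESeq2 and its size factors, library totals, other filters, non-robust fitting, a block for the replicate number, counts divided by 4, counts summed over genes sharing exons, limma on log2 TPM, glmTreat, and each library left out. Python 3.11.15 was used with matplotlib 3.10.9, scipy 1.17.1, numpy 2.4.6, and pandas 2.3.3, and R 4.3.3 with limma 3.58.1, DESeq2 1.42.0, and edgeR 4.0.16.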

Additional observations from a re-analysis of the deposited data

How the results depend on the processing

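Of the 13 members past the threshold, 13 were kept by DESeq2, 12 by DESeq2's size factors (without *Socs7*), 12 without robust estimation, 9 on library totals (without *Tyk2*, *Stat3*, *Socs7*, and *Pim1*), and 13 under each other filter. The 7 higher and 6 lower members became 3 and 2 with limma on log2(TPM + 1) or log2(TPM + 0.1), and 1 (*Il12a*) and 0 with log2(TPM + 1) and no filter. Over all genes, the 1356 higher and 1660 lower became 427 and 816, 434 and 850, and 51 and 76 in these fits. The 2 higher and 1 lower past a log2 fold change of 1 became 0 and 0 with log2(TPM + 1), 1 and 0 with log2(TPM + 0.1), 0 and 0 with log2(TPM + 1) without a filter, and 0 and 0 when glmTreat tested against a log2 fold change of 1. All genes past both cutoffs numbered 259 higher and 155 lower in the main fit. They became 61 and 79, 171 and 194, 33 and 43, and 3 and 1, in the same order of fits. With each library left out in turn, the higher members numbered 5 to 7 and the lower 0 to 8, and past a log2 fold change of 1 there were 2 higher in every case and 0 to 1 lower. Over all genes, the higher numbered 543 to 1678 and the lower 485 to 2111 in these fits. Apart from glmTreat, *Il12a* passed in all 18 alternatives (adjusted p up to 0.0494), and *Bcl2l1* and *Osmr* in 17. Counts summed over genes sharing exons added *Stat4*, whose own count is 0. That sum holds *Gm28177* (0 to 24 counts in a library) and any further gene joined through it, so it says nothing of *Stat4*.

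Of the members that did not pass the test, *Cish* and *Il6* changed sign, as did 6 others in 1 to 4 of 18 settings (*Stat6*, *Pias4*, *Ifnar1*, *Ifnar2*, *Il4ra*, and *Il15ra*). *Cish* stood at -0.036 with the replicate block, -0.023 with log2(TPM + 1) with or without the filter, -0.11 with log2(TPM + 0.1), -0.026 without normal replicate 1, and between -0.28 (without DM1 replicate 3) and 0.27 over the libraries left out. *Il6* stood between -0.19 and 0.10 over the libraries left out, with 0.041 without DM1 replicate 2 and 0.086 without DM1 replicate 3. The replicate block gave 7 higher and 5 lower members, losing *Tyk2* and *Socs7* and adding *Jak3*, and 2 higher and 1 lower past a log2 fold change of 1. The numbers were not taken to pair the samples, since deviations from the group means correlated between -0.07 and 0.07 in all 9 pairs across groups. Single genes did follow the number, such as *Socs6* (low in library 2 of both groups, adjusted p = 0.0501 with the block), *Cebpb* (low in library 1 of both), and *Epo* (above 0 only in library 3 of both). Depth limits the members under about 200 counts (*Lepr*, *Cish*, *Stat6*, *Socs1*, *Il15ra*, *Ptpn6*, and *Il6*), although the widest interval was that of *Socs6*, which varied within groups at 1259 to 3788 counts.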
